A study of Mus musculus with 24 samples.

Results

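The interferon response genes described here are 43 mouse genes that cells switch on when an interferon reaches them. They were chosen by name from textbook lists, and 57 array probes carry one of these names. A probe was kept where 1 or more of the 4 groups had it well above background on each of its arrays, which held for 43 of the 57 probes and left 36 of the 43 genes, out of 12474 genes kept by the same rule. By textbook knowledge 26 genes answer mainly to type I interferons (21 kept) and 10 mainly to interferon-gamma (8 kept), and the other 7, all kept, answer to both or were not assigned. Many genes of either class respond to both kinds of interferon in part.

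RNA was measured in the right ventricle of the mouse heart on 1-colour Agilent arrays, 1 array per sample, 24 in all. There were 10 samples from sham operations, and 14 from surgery that loads the right ventricle with both pressure and volume, named PSPI in the labels: 5 at month 1, 5 at month 2 and 4 at month 3. All samples carry the same strain entry, M/FVB/10-12, where FVB is an inbred mouse strain. The labels name no genetic change and no drug. Since they do not say at which month a sham was taken, all 10 shams served as controls of each month. The design asks what sets an overloaded right ventricle apart from a control. A level is the log2 signal of a probe minus the 75th percentile of its array, and n counts arrays, whose number limits the precision. A gene was called where the p-value of the limma fit, adjusted by Benjamini-Hochberg over all 12474 genes, lay under 0.05, and every ± after a log2 change is the standard error of that fit.

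Type I interferons, a family that includes interferon-alpha and interferon-beta, are made when a cell senses foreign or misplaced nucleic acid. They bind a receptor of Ifnar1 and Ifnar2, and the kinases behind it activate transcription factors, Stat2 and Irf9 among them, that bind a DNA motif called the interferon-stimulated response element, ISRE. Interferon-gamma, made mainly by T cells and natural killer cells, binds Ifngr1 and Ifngr2 and acts on another motif, the gamma-activated site, GAS. In the heart these genes are known best from viral myocarditis, and they have also been described after myocardial injury.

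Either motif can be read in the promoters of part of these genes, and 6 genes hold both in 1 promoter. RefSeq promoters (build GRCm38.p6, 250 bases before to 50 after the start of the gene) were found for 33 of the 43 genes, 40 promoters in all. The ISRE core searched was GAAA, 2 bases of any kind and GAAA again, and the GAS core was TTC, 3 bases of any kind and GAA, both on both strands. Matches may overlap each other, within a motif and between motifs. An ISRE core was present in 19 of the 40 promoters, 47.5%, against 3.44% of all 32851 mouse promoters of the same length. A GAS core was present in 12, 30%, against 8.30% of all promoters. The 8 stretches that follow, 90 bases each and printed 5′ to 3′ on the strand of the gene, are shown because they hold matches of genes described in full or contrasted later. Capitals mark the ISRE and GAS matches. Ifit1, Ifit3, Isg15 and Oas1a are type I genes, and Gbp3, Irgm1, Igtp and Irf1 are interferon-gamma genes.
Ifit1, chr19:34640754-34640843, plus strand: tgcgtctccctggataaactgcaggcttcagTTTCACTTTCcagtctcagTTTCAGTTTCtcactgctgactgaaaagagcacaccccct
Ifit3, chr19:34583350-34583439, plus strand: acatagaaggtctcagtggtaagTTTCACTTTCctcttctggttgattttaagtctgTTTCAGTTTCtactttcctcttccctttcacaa
Isg15, chr4:156200841-156200930, minus strand: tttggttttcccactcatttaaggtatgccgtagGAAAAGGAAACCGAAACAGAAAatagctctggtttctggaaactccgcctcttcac
Oas1a, chr5:120907526-120907615, minus strand: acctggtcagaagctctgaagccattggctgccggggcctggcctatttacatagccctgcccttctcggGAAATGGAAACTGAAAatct
Gbp3, chr3:142559954-142560043, plus strand: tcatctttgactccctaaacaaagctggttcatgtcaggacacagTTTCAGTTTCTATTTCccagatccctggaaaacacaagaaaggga
Irgm1, chr11:48871421-48871510, minus strand: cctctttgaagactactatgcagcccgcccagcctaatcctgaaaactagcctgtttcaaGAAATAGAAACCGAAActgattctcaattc
Igtp, chr11:58199466-58199555, plus strand: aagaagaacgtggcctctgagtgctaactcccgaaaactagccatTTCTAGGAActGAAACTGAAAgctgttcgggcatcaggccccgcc
Irf1, chr11:53769883-53769972, plus strand: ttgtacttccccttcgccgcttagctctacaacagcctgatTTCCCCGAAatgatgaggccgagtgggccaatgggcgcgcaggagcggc
Ifit1 and Ifit3 each hold 2 separate ISRE cores, and Isg15 holds 3 that overlap. Oas1a, Gbp3 and Irgm1 hold 2 overlapping ones, and in Oas1a a GAS core lies just outside the stretch, 98 bases before the start. Igtp holds 1 GAS core and 1 ISRE core, 45 and 34 bases before its start. The Irf1 stretch holds a GAS core, 90 bases before the start, and no ISRE core. No promoter was found for Zbp1 and Usp18, and those of Ifit2, Oasl1 and Oasl2 held no ISRE core. Of kept type I genes with an ISRE core, 7 of 10 were called higher in month 3, with a median change of 0.68. Of those with a promoter but no ISRE core, 5 of 6 were, with a median of 1.00. Of all genes 17.2% were. Ifit1, among the 10, and Oasl1, among the 6, passed the filter only through months in which they are high. They do not support these counts and medians. These matches describe letters and not bound sites.

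Some features of the arrays run beside every comparison. The labels do not say that samples came from separate animals, so a p-value here rests on sample-to-sample spread that may be technical. The 10 shams were spread over slides 1 and 3, 7 and 3 of them, and slide 2 had none. Months 1, 2 and 3 had 1, 0 and 0 samples on slide 1, 3, 4 and 1 on slide 2, and 1, 1 and 3 on slide 3. On 7 pairs of arrays, all within a group, gene-centred values correlated more closely (r from 0.646) than on any pair of different groups (r up to 0.637), and averaging them left 17 samples. Myh7 encodes slow myosin, a known sign of load in the mouse heart. Its level was 4.67 to 5.91 on 15 arrays, which were those of Sham 6 to 9, of samples 1 and 5 of month 1 and of every sample of the later months, and 1.62 to 2.52 on the remaining 9. All 7 ventricular muscle markers listed were kept. The summed signal of 4 atrial markers, relative to the 75th percentile, ran from 1.16 to 195.7 in the shams. In months 1 to 3 it ran from 2.43 to 94.4, 26.3 to 85.1 and 30.5 to 53.1. In month 3, 3 of the 4 were called lower than in month 1, as were 16.6% of all genes. The ventricular marker Ryr2 was called lower than sham in month 3 (-0.78 ± 0.17, adjusted p = 0.00137), as were 21.7% of all genes. The other 6 ventricular markers stood above 0 in month 3 and were not called. The median change of the 7 was 0.58, and their summed signal was 207 to 530 in sham and 282 to 758 in month 3. The part of these changes in the results was not tested.

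Interferon response genes were higher in overloaded ventricles, most of all at month 3. Over all months, weighted equally, 18 of the 36 genes rose and 0 fell, where 10.8% of all genes were called higher and 13.6% lower (24.4% together). The median change of the 36 was 0.32 on the log2 scale against -0.01 for all genes, and 32 of 36 lay above 0. In month 3, 25 of 36 rose and 0 fell, against 17.2% and 21.7% of all genes (38.9% in either direction), with a median of 0.64 against -0.04. In month 2, 5 rose and 0 fell, against 6.39% and 8.08% (14.5% together). In month 1, limma called 0 of 36 in either direction, as it called 0% of all genes, while 8 of 36 had an unadjusted p under 0.05. All 18 genes called over all months and all 5 called in month 2 were among the 25 of month 3, but these comparisons share their shams, and the first also shares the month 3 arrays. Zbp1, Ifit1 and Oasl1 passed the filter only through months in which they are high, so their calls do not support these counts. Of the 31 genes well above background on every array, 20 rose in month 3, 2 in month 2 and 13 over all months. The share of all genes called under this stricter filter is not given here, and the percentages above belong to the wider set. Under it the median change of the 31 was 0.50 in month 3 against -0.05 for all genes. In month 2 it was 0.11 against -0.03, and over all months 0.26 against -0.02. In bulk tissue such as this, fewer cells of a type and less RNA per cell cannot be told apart.

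Single arrays weighed most on the month 2 count. Leaving out any 1 of the 24 arrays left 21 to 25 genes called in month 3 and 15 to 19 over all months. With close arrays averaged, 20 of the 25 genes were still called in month 3, but 9 of the 18 over all months and 0 of the 5 in month 2. On slide 3 alone, where months 1 and 2 have 1 array each, 13 of the 25 were called in month 3 and 0 of 36 in the other comparisons. The month 2 count fell to 2 or 3 without Sham 1, 2, 4, 5 or 10, or without month 2 sample 1, 3, 4 or 5. With slide as a fixed block it was 6, with Ifit3 and Oasl1 gained and Ifitm2 lost. The month 1 count became 1 without Sham 8 or without month 3 sample 4. Scaling by the percentile of all probes moved the median of all genes in month 3 from -0.04 to -0.20. The median of the 36 genes then stood at 0.48. Its distance of 0.68 from the median of all genes cannot change, as this scaling shifts every gene of an array alike. With it 19 genes were called higher and 2, Irf1 and Samhd1, lower.

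**Figure D1:**
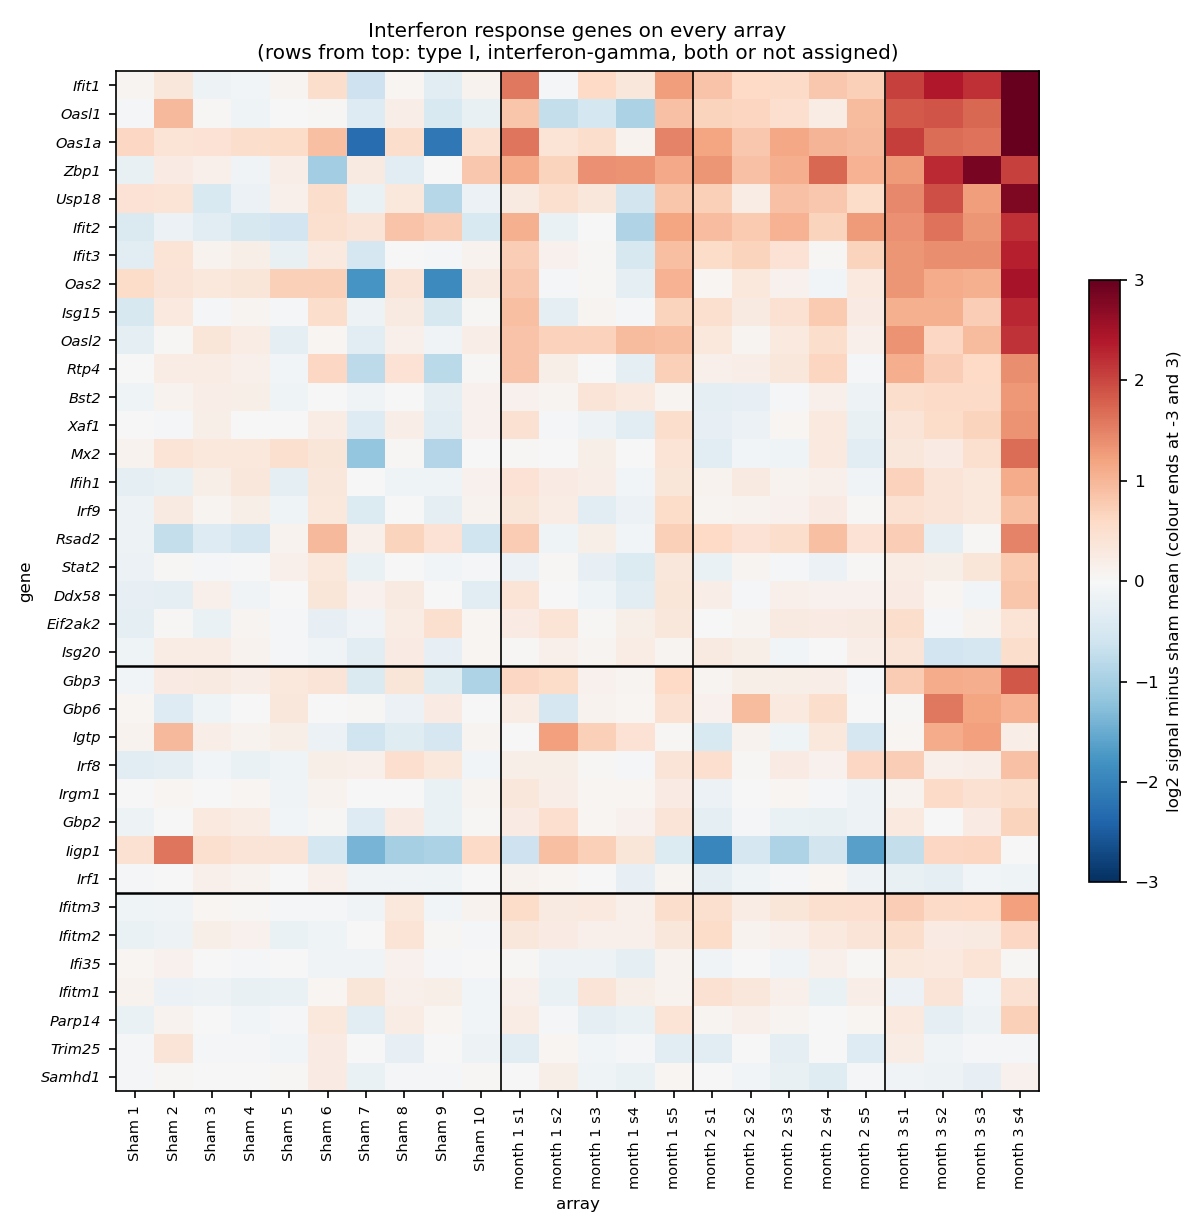
Log2 signal of the 36 kept interferon response genes (vertical axis) on each of the 24 arrays (horizontal axis), coloured by the difference from the sham mean of the gene; s stands for sample, black lines part the groups and the gene classes. The month 3 columns are the reddest among type I genes, with sample 4 of month 3 the highest of 24 arrays for 26 of 36 genes, and Sham 7 and 9 are blue for Oas1a, Oas2 and Mx2.

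The Ifit genes, whose proteins bind viral RNA and block its translation, rose together, all 3 over all months and in month 3. Of all genes 10.8% and 17.2% were called higher there. Ifit1 passed the filter only through months in which it is high, so its calls do not support this count. Ifit1 (probe on chr19:34723796-34723855, mm9) lay between -6.35 and -5.19 in sham with a median of -5.66. Its levels were -4.15, -5.78, -5.12, -5.39 and -4.48 in month 1 and -4.88, -5.12, -5.14, -4.91 and -5.00 in month 2. In month 3 they were -3.68, -3.32, -3.54 and -2.68. Every array of months 2 and 3 lay above every sham, and in month 1 the samples 1, 3 and 5 did. The change was 0.71 ± 0.21 in month 2 (adjusted p = 0.0296) and 2.42 ± 0.23 in month 3 (adjusted p = 1.04e-07). The probe was well above background on 7 of 10 shams and 4 of 5 month 1 arrays, so the low levels are close to background and the size of the change is uncertain. The month 2 call was lost with normexp background correction (0.50 ± 0.18, adjusted p = 0.0752), without Sham 7 and 9 (0.59 ± 0.21, adjusted p = 0.0526) and with the replicate block (0.66 ± 0.25, adjusted p = 0.074). With slide as a fixed block the month 2 change was 1.33 ± 0.26 (adjusted p = 0.0121).

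Ifit3, a partner that stabilises Ifit1 on RNA, ran from -4.41 to -3.50 in sham (median -3.86). Month 1 gave -3.18, -3.78, -3.88, -4.38 and -3.01, and month 2 gave -3.37, -3.23, -3.47, -3.88 and -3.24. The month 3 levels were -2.59, -2.53, -2.52 and -1.58. Only month 3 was clear of the sham range on every array, and its sample 4 stood well above the other 3. The change was 1.61 ± 0.22 in month 3 (3.04-fold, adjusted p = 9.98e-06) and 0.47 ± 0.20 in month 2 (adjusted p = 0.111). In month 2 it was called with slide as a fixed block (0.99 ± 0.25, adjusted p = 0.0263), normexp (0.41 ± 0.13, adjusted p = 0.0434) and the deposited table (0.42 ± 0.13, adjusted p = 0.0368).

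Ifit2, which binds RNA rich in A and U, ran from -5.44 to -4.03 in sham (median -5.14). Its levels were -3.82, -5.07, -4.90, -5.79 and -3.71 in month 1, with samples 1 and 5 above every sham and sample 4 below every sham. They were -3.94, -4.09, -3.83, -4.22 and -3.60 in month 2 and -3.50, -3.26, -3.55 and -2.68 in month 3. All 4 month 3 arrays and 3 of 5 month 2 arrays lay above every sham. The change was 0.94 ± 0.30 in month 2 (adjusted p = 0.0368) and 1.63 ± 0.32 in month 3 (3.1-fold, adjusted p = 4.83e-04). With slide as a fixed block the month 2 change was 1.75 ± 0.37 (adjusted p = 0.0158), and without the filter on dim probes its call was lost (adjusted p = 0.0821).

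The Oas genes encode sensors of double-stranded RNA, some of which make the messenger that activates RNase L. All 4 kept members rose in month 3, and 3 of them over all months, where 17.2% and 10.8% of all genes did. Oasl1, counted in both, passed the filter only through month 3, in which it is high. Its calls do not support these counts. Oasl2 lay between -3.73 and -3.04 in sham (median -3.35). It was at -2.55, -2.71, -2.70, -2.45 and -2.48 in month 1, the single gene of the 36 for which every month 1 array lay above every sham (0.385% of all genes did so). In month 2 it was at -3.09, -3.32, -3.10, -2.86 and -3.25, within the sham range on all but sample 4. In month 3 it was at -2.05, -2.78, -2.45 and -1.24, again above every sham. The change was 0.82 ± 0.17 in month 1 (adjusted p = 0.0654), 0.27 ± 0.17 in month 2 (adjusted p = 0.284) and 1.27 ± 0.18 in month 3 (2.40-fold, adjusted p = 2.17e-05).

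Oasl1, known as a brake on Irf7 translation, ran from -5.97 to -4.54 in sham (median -5.52), and its highest sham, Sham 2, stood apart from the rest. Month 1 fell into separate levels, -4.66 and -4.62 in samples 1 and 5 against -6.21, -6.02 and -6.45 in samples 2 to 4. Month 2 gave -4.83, -4.87, -5.00, -5.28 and -4.54, and month 3 gave -3.67, -3.61, -3.78 and -2.13. No array of months 1 and 2 lay above every sham, samples 2 to 4 of month 1 lay below every sham, and all 4 of month 3 lay above. The change was -0.09 ± 0.30 in month 1 (adjusted p = 0.945), 0.60 ± 0.30 in month 2 (adjusted p = 0.176) and 2.20 ± 0.32 in month 3 (adjusted p = 2.48e-05). The probe was well above background on 7 of 10 shams, 2 of 5 month 1 arrays and 4 of 5 month 2 arrays, so the sizes are uncertain. With slide as a fixed block the month 1 change stood above 0 (0.62 ± 0.30, adjusted p = 0.539), and month 2 was called (1.56 ± 0.34, adjusted p = 0.0164).

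Oas2, a synthase of the RNase L messenger, ran from -4.78 to -2.15 in sham (median -2.51). Month 1 gave -2.06, -2.90, -2.83, -3.17 and -1.83, and month 2 gave -2.81, -2.56, -2.75, -2.95 and -2.58. Month 3 gave -1.54, -1.75, -1.81 and -0.40, all above every sham, as were samples 1 and 5 of month 1. Sham 7 and Sham 9 lay at -4.63 and -4.78 and the other 8 shams between -2.61 and -2.15. The change in month 3 was 1.5 ± 0.42 (adjusted p = 0.00775), and without Sham 7 and 9 it was 1.04 ± 0.24 (adjusted p = 0.00200). Over all months the change was 0.65 ± 0.29 (adjusted p = 0.108) with all shams and 0.20 ± 0.17 (adjusted p = 0.415) without these.

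Oas1a, another synthase, had the same low shams, -5.22 in Sham 7 and -5.09 in Sham 9 against -2.51 to -2.02 in the other 8. The month 3 arrays lay at -0.86, -1.25, -1.29 and 0.25, above every sham. The change in month 3 was 2.14 ± 0.50 (adjusted p = 0.00205), and 1.59 ± 0.26 without Sham 7 and 9 (adjusted p = 1.34e-04). Over all months it was 1.34 ± 0.35 (adjusted p = 0.00903), and 0.78 ± 0.19 without these (adjusted p = 0.00591), a change smaller by more than 1.5 times that was still called. The Oas1a probe also matches a transcript of the near-identical Oas1g, so its signal may come from either.

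**Figure D2:**
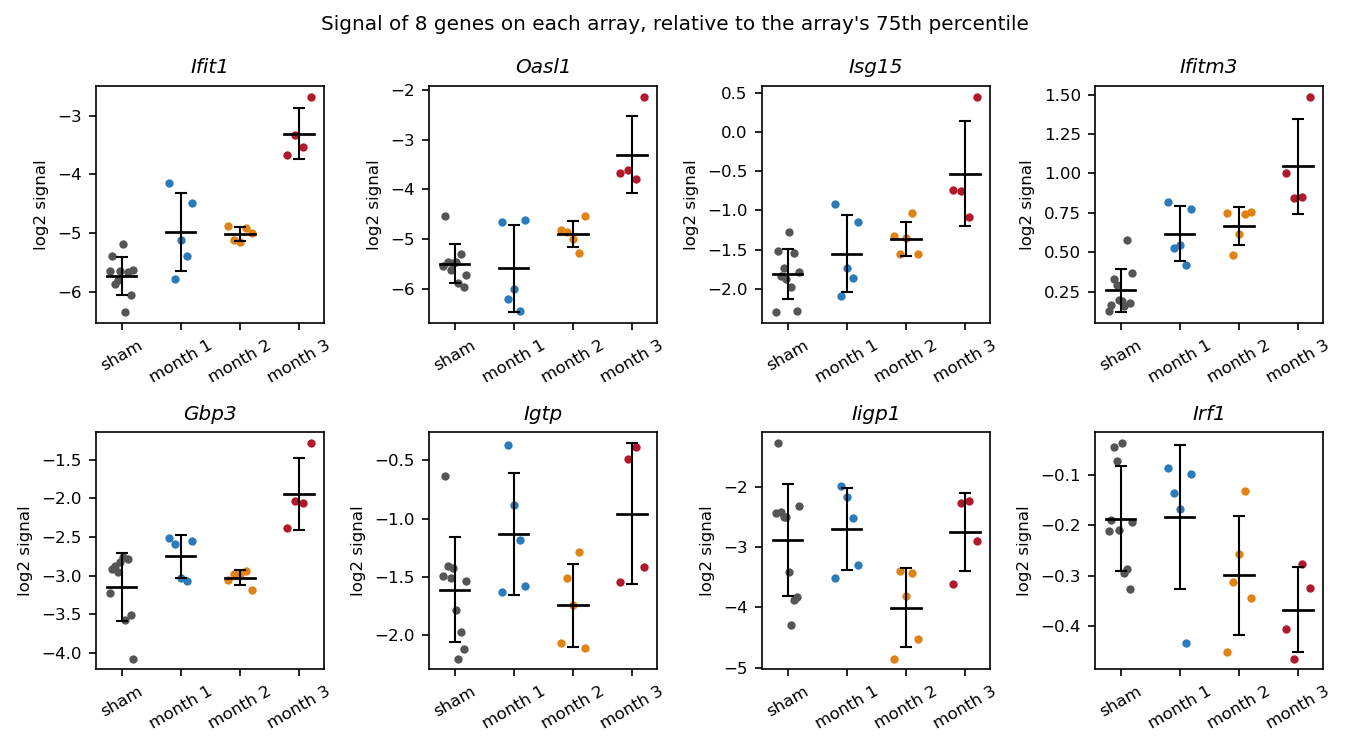
Log2 signal relative to the 75th percentile of the array (vertical axis) for 8 genes in sham (n = 10) and months 1 to 3 (n = 5, 5 and 4, horizontal axis); each point is an array, and the bar and whiskers are the mean and SD. Ifit1, Oasl1, Isg15, Ifitm3 and Gbp3 stand above every sham on all 4 month 3 arrays, while Iigp1 and Irf1 overlap with sham.

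The Isg15 system joins a ubiquitin-like protein to other proteins. Isg15, that protein, ran from -2.30 to -1.27 in sham (median -1.81). Its levels were -0.92, -2.09, -1.73, -1.86 and -1.15 in month 1 and -1.33, -1.55, -1.35, -1.03 and -1.56 in month 2. Month 3 gave -0.74, -0.75, -1.08 and 0.45, every array above every sham. Samples 1 and 5 of month 1 and sample 4 of month 2 also lay above every sham. The change was 0.26 ± 0.22 in month 1 (adjusted p = 0.687), 0.45 ± 0.22 in month 2 (adjusted p = 0.167) and 1.28 ± 0.24 in month 3 (2.43-fold, adjusted p = 2.58e-04).

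Usp18, the protease that removes Isg15 and damps the type I receptor, ran from -6.24 to -4.87 in sham (median -5.40). It was at -5.13, -4.91, -5.06, -5.94 and -4.57 in month 1 and at -4.67, -5.17, -4.51, -4.60 and -4.85 in month 2. Month 3 gave -3.95, -3.46, -4.15 and -2.60. All 4 month 3 arrays, 4 of 5 month 2 arrays and 1 month 1 array lay above every sham. The change was 1.85 ± 0.27 in month 3 (3.62-fold, adjusted p = 2.11e-05). In month 2 it was 0.63 ± 0.25 (adjusted p = 0.0846).

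Trim25, a ubiquitin ligase that acts on the RNA sensor encoded by Ddx58, was not called. It ran from 0.78 to 1.40 in sham (median 0.97), and was at 0.67, 1.07, 0.93, 0.96 and 0.70 in month 1. Month 2 gave 0.70, 1.03, 0.76, 1.00 and 0.64, and month 3 gave 1.24, 0.90, 0.99 and 0.97. The groups overlapped, with 2 arrays of month 1 and 3 of month 2 below every sham. The change over all months was -0.11 ± 0.07 (adjusted p = 0.285), and 0.06 ± 0.08 (adjusted p = 0.6251) when the mean of its kept probes was used, so its direction depends on the probe.

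Among the sensors of nucleic acid, Zbp1, which detects left-handed double helices and can start necroptosis, was called in months 2 and 3. It ran from -7.82 to -5.97 in sham (median -6.68). Its levels were -5.65, -6.11, -5.40, -5.41 and -5.62 in month 1 and -5.44, -5.89, -5.67, -5.05 and -5.73 in month 2. Month 3 gave -5.50, -4.54, -3.93 and -4.71. All arrays of months 2 and 3 and 4 of 5 of month 1 lay above every sham. The change was 1.13 ± 0.24 in month 1 (adjusted p = 0.0654), 1.21 ± 0.24 in month 2 (adjusted p = 0.00391) and 2.10 ± 0.26 in month 3 (adjusted p = 2.90e-06). The probe was well above background on 1 of 10 shams and on 4, 5 and 4 arrays of months 1 to 3, so the sham level is close to background and the size of these changes is uncertain. With normexp background correction the month 3 change was 1.10 ± 0.27 (adjusted p = 0.00362), and the month 2 call was lost (0.45 ± 0.25, adjusted p = 0.241).

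Of the 3 other kept sensors 1 rose in month 3, where 17.2% of all genes did. Ifih1, which encodes the long RNA sensor MDA5, rose by 0.62 ± 0.14 in month 3 (adjusted p = 0.00138). Ddx58, encoding RIG-I, stood at 0.26 ± 0.15 (adjusted p = 0.180), and Eif2ak2, the kinase PKR that halts translation, at 0.25 ± 0.12 (adjusted p = 0.111), neither called. With normexp both were called (0.33 ± 0.12, adjusted p = 0.0369, and 0.36 ± 0.09, adjusted p = 0.00456), as they were with the deposited table. Eif2ak2 was also called without Sham 6 to 9 (0.30 ± 0.11, adjusted p = 0.0416), without Sham 7 and 9 (0.29 ± 0.11, adjusted p = 0.0466) and with the replicate block (0.35 ± 0.13, adjusted p = 0.0466).

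The membrane proteins Ifitm1, Ifitm2 and Ifitm3 hinder the entry of enveloped viruses, and Bst2 tethers budding ones to the cell. Ifitm3 ran from 0.13 to 0.58 in sham (median 0.20). It was at 0.82, 0.53, 0.55, 0.42 and 0.78 in month 1 and at 0.75, 0.48, 0.61, 0.74 and 0.75 in month 2. Month 3 gave 1.00, 0.84, 0.85 and 1.49. All 4 month 3 arrays lay above every sham, as did 4 of 5 of month 2 and 2 of 5 of month 1. The change was 0.41 ± 0.10 in month 2 (adjusted p = 0.0113) and 0.79 ± 0.11 in month 3 (1.72-fold, adjusted p = 1.11e-05).

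Ifitm2 ran from -0.83 to -0.20 in sham (median -0.65). It was at -0.27, -0.36, -0.48, -0.46 and -0.28 in month 1, at -0.07, -0.51, -0.47, -0.33 and -0.24 in month 2, and at -0.10, -0.36, -0.34 and 0.01 in month 3. Every group overlapped with sham, whose highest array was Sham 8, and 1 array of month 2 and 2 of month 3 lay above it. The change was 0.29 ± 0.10 in month 2 (adjusted p = 0.0466) and 0.42 ± 0.11 in month 3 (adjusted p = 0.00373), and with the percentile of all probes the month 3 change was 0.26 ± 0.11 (adjusted p = 0.0613). The month 2 call was lost without Sham 7 and 9 (adjusted p = 0.0534) and with slide as a fixed block (adjusted p = 0.0754), among other settings. Bst2 rose by 0.75 ± 0.12 in month 3 (adjusted p = 8.88e-05) with every array above every sham. Ifitm1 stood at 0.15 ± 0.14 (adjusted p = 0.407).

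The large GTPases of the Gbp family, induced strongly by interferon-gamma, attack the vacuoles in which microbes live. Gbp3 (probe on chr3:142236032-142236091, mm9) ran from -4.07 to -2.75 in sham (median -2.93). It was at -2.52, -2.59, -3.03, -3.07 and -2.55 in month 1 and at -3.06, -2.98, -2.98, -2.94 and -3.19 in month 2. Month 3 gave -2.38, -2.03, -2.06 and -1.29. The month 2 arrays all lay inside the sham range, while 3 of month 1 and all 4 of month 3 lay above it. The change was 0.40 ± 0.19 in month 1 (adjusted p = 0.419), 0.12 ± 0.19 in month 2 (adjusted p = 0.727) and 1.21 ± 0.21 in month 3 (2.31-fold, adjusted p = 1.55e-04).

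Gbp6 ran from -3.55 to -2.81 in sham (median -3.15). It was at -2.92, -3.65, -3.04, -3.10 and -2.71 in month 1 and at -3.03, -2.20, -2.87, -2.63 and -3.14 in month 2. Month 3 gave -3.11, -1.57, -1.96 and -2.10, so that samples 2 to 4 lay above every sham and sample 1 inside the range. In month 1 sample 5 lay above and sample 2 below every sham, and in month 2 samples 2 and 4 lay above. The change in month 3 was 0.97 ± 0.21 (1.96-fold, adjusted p = 0.00114). A second kept probe of Gbp6, which also matches Gbp10, stood at 0.61 ± 0.24 in month 3 (adjusted p = 0.0487 in a limma fit over kept probes). Gbp2 changed by 0.30 ± 0.12 in month 3 (adjusted p = 0.0496), a call that was lost without Sham 7 and 9 (0.23 ± 0.11, adjusted p = 0.111). Mx2, a dynamin-like GTPase of the type I class, changed by 0.69 ± 0.27 (adjusted p = 0.0461), and its call too was lost without these shams (0.43 ± 0.19, adjusted p = 0.0799), which lay at -5.84 and -5.56 against -4.70 to -4.21 in the other 8. Both calls were also lost with slide as a fixed block (adjusted p = 0.0707 for Gbp2 and 0.0869 for Mx2), and with close arrays averaged (adjusted p = 0.0699 and 0.0598).

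The immunity-related GTPases of the Irg family, effectors of interferon-gamma in mouse cells, had 3 kept members. Of these 1, Irgm1, rose in month 3 (17.2% of all genes did). Irgm1, the regulator of these GTPases, ran from -2.22 to -1.92 in sham (median -2.02). It was at -1.68, -1.83, -1.97, -1.97 and -1.78 in month 1, at -2.21, -2.01, -1.97, -2.05 and -2.17 in month 2, and at -1.93, -1.46, -1.57 and -1.50 in month 3. The month 2 arrays all lay inside the sham range, and samples 1, 2 and 5 of month 1 and samples 2 to 4 of month 3 lay above it. The change was 0.41 ± 0.08 in month 3 (1.33-fold, adjusted p = 5.73e-04). Over all months it was 0.18 ± 0.06 (adjusted p = 0.0287), a call lost without Sham 5 (0.17 ± 0.06, adjusted p = 0.0539), without Sham 9 (0.16 ± 0.06, adjusted p = 0.0541) or without month 3 sample 2 (0.16 ± 0.06, adjusted p = 0.0531). It was also lost with the percentile of all probes, without the filter, with the replicate block, with close arrays averaged, on slide 3 alone, and without Sham 6 to 9 or Sham 7 and 9 (0.11 to 0.27, adjusted p from 0.0674 to 0.411).

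Iigp1, an Irg effector, ran from -4.29 to -1.28 in sham (median -2.51). It was at -3.51, -2.00, -2.18, -2.51 and -3.30 in month 1 and at -4.85, -3.40, -3.81, -3.43 and -4.53 in month 2. Month 3 gave -3.61, -2.27, -2.23 and -2.90. Every group overlapped with sham, and 2 of 5 month 2 arrays lay below it. The change was 0.19 ± 0.41 in month 1 (adjusted p = 0.910), -1.12 ± 0.41 in month 2 (adjusted p = 0.0670) and 0.13 ± 0.44 in month 3 (adjusted p = 0.834). Without Sham 6 to 9, the shams at the higher Myh7 level, Iigp1 was called lower over all months (-0.91 ± 0.28, adjusted p = 0.0189), against -0.26 ± 0.31 (adjusted p = 0.551) with all shams. In month 2 it was called lower without Sham 6 to 9 (-1.76 ± 0.34, adjusted p = 0.00129), without Sham 7 and 9 (-1.41 ± 0.38, adjusted p = 0.0145), with the replicate block (-1.77 ± 0.20, adjusted p = 1.55e-04) and with the mean of its kept probes (-1.09 ± 0.36, adjusted p = 0.0479).

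Iigp1 was lower on most arrays where Myh7 was higher. The 9 arrays at the lower Myh7 level had Iigp1 at -2.51 to -1.28, and the 15 at the higher level had it at -4.85 to -2.23. Within the shams the ranges were -2.51 to -1.28 and -4.29 to -3.42 and did not overlap. Igtp, another Irg GTPase, showed the same split in the shams, -1.53 to -0.63 against -2.20 to -1.79, and stood at 0.65 ± 0.27 in month 3 (adjusted p = 0.0573). The shams split the other way for Ifit2, -5.44 to -5.07 at the lower Myh7 level against -4.49 to -4.03 at the higher. Irf8 (-2.86 to -2.59 against -2.37 to -2.01) and Rsad2 (-4.30 to -3.46 against -3.43 to -2.59) did the same. For the other 31 genes the sham ranges at both levels overlapped. The share of all genes that split in this way is not given here, so the split is not shown to be particular to these genes. The part of the Myh7 level in these results was not tested.

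Of the transcription factors, Irf1, induced early by interferon-gamma, was not called. It ran from -0.33 to -0.04 in sham (median -0.20). Its levels were -0.09, -0.14, -0.17, -0.43 and -0.10 in month 1 and -0.45, -0.31, -0.26, -0.13 and -0.34 in month 2. Month 3 gave -0.41, -0.46, -0.28 and -0.32, so that samples 1 and 2 lay below every sham and samples 3 and 4 inside the sham range. The change in month 3 was -0.18 ± 0.08 (adjusted p = 0.0646). It was called lower with the percentile of all probes (-0.34 ± 0.08, adjusted p = 0.00152), without Sham 6 to 9 (-0.21 ± 0.08, adjusted p = 0.0457), without Sham 7 and 9 (-0.21 ± 0.08, adjusted p = 0.0386), without Sham 9 (-0.20 ± 0.08, adjusted p = 0.04996) and without month 1 sample 4 (-0.18 ± 0.07, adjusted p = 0.0463).

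Stat2 and Irf9, factors of the type I response, rose in month 3 by 0.39 ± 0.12 (adjusted p = 0.0151) and 0.52 ± 0.15 (adjusted p = 0.00897). Irf8, a factor of macrophages and dendritic cells, rose by 0.50 ± 0.16 (adjusted p = 0.0161), a call lost with slide as a fixed block (0.49 ± 0.20, adjusted p = 0.0616). With close arrays averaged the calls of Stat2 (adjusted p = 0.0645) and Irf8 (adjusted p = 0.0751) were lost. Neither Stat2 nor Irf9 was called in months 1 or 2, where their changes ran from -0.09 to 0.13.

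Of 7 other kept effectors 3 rose in month 3, where 17.2% of all genes did. Rtp4, a chaperone of receptors, rose by 0.95 ± 0.24 (adjusted p = 0.00379), and by 0.75 ± 0.20 without Sham 7 and 9 (adjusted p = 0.00552). Its call over all months (0.50 ± 0.17, adjusted p = 0.0344) was lost without these shams (0.30 ± 0.14, adjusted p = 0.124). Xaf1, a promoter of apoptosis, rose by 0.74 ± 0.17 (adjusted p = 0.00184), with every array above every sham, and Ifi35, a leucine zipper protein, by 0.26 ± 0.08 (adjusted p = 0.0115), a call lost with close arrays averaged (adjusted p = 0.0926). Rsad2, the antiviral enzyme viperin, stood at 0.49 ± 0.30 (adjusted p = 0.197), Parp14 at 0.14 ± 0.15 (adjusted p = 0.451) and Isg20, an RNA exonuclease, at -0.04 ± 0.16 (adjusted p = 0.874). A second kept probe of Isg20 stood at 0.28 ± 0.15 in month 3 (adjusted p = 0.149 in a limma fit over kept probes). Over all months that probe stood at 0.30 ± 0.11 (adjusted p = 0.0444 in the same fit). Rsad2 was called in month 3 without Sham 6 to 9 (0.87 ± 0.27, adjusted p = 0.0177), with normexp (0.61 ± 0.22, adjusted p = 0.0366), with the deposited table (0.64 ± 0.22, adjusted p = 0.0262) and with the replicate block (0.88 ± 0.25, adjusted p = 0.0149).

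Samhd1, which hydrolyses deoxynucleotides, ran from -1.30 to -0.86 in sham (median -1.10). It was at -1.11, -0.93, -1.22, -1.29 and -1.03 in month 1, at -1.10, -1.19, -1.32, -1.46 and -1.12 in month 2, and at -1.19, -1.25, -1.34 and -0.96 in month 3. The groups overlapped, with 2 arrays of month 2 and 1 of month 3 below every sham. The change was -0.08 ± 0.06 over all months (adjusted p = 0.321) and -0.09 ± 0.09 in month 3 (adjusted p = 0.437), called lower in month 3 with the percentile of all probes (-0.25 ± 0.09, adjusted p = 0.0266).

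The 7 genes without a kept probe were Cxcl10, a chemokine for T cells, the factor Irf7, the RNA sensor Dhx58, and the effectors Ifi44, Mx1, Oas3 and Tgtp1. Irf7 was well above background on 1 of 10 shams and on 2 of 5, 2 of 5 and 3 of 4 arrays of months 1 to 3. Ifi44 was so on 2, 2, 2 and 3 arrays, and Dhx58 on 1, 1, 3 and 2. Oas3 was so on 0 arrays, and Mx1 and Tgtp1 each on 1 of month 1 and 1 of month 3. No change was estimated for these genes, and Tgtp1 shares its probe with Tgtp2.

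The course of the type I and interferon-gamma genes over the months is described by counts and medians. Of 21 type I genes 0, 3 and 17 were called higher in months 1, 2 and 3, and the median change went from 0.24 over 0.26 to 0.95. Of 8 interferon-gamma genes 0, 0 and 5 were called higher, and the median went from 0.18 over -0.09 to 0.45. The percentages of all genes called higher were 0%, 6.39% and 17.2%. Ifit1 and Zbp1, called in month 2, and Oasl1 passed the filter only through months in which they are high. Their calls do not support these counts. With probes well above background on all arrays, the genes called in month 2 were Ifitm2 and Ifitm3, of neither class. The type I medians of months 1 to 3 were then 0.24, 0.13 and 0.71, and the interferon-gamma medians were unchanged. Without Sham 6 to 9 the month 3 medians were 0.87 and 0.39, while with slide as a fixed block the type I medians of months 1 to 3 were 0.55, 0.67 and 1.3 and the interferon-gamma medians 0.26, 0.06 and 0.50. The interferon-gamma median of month 2 was above 0 there, with close arrays averaged (0.04) and without the filter (0.03), so its sign depends on the setting. In month 3 the type I genes not called were Ddx58, Eif2ak2, Isg20 and Rsad2, and the interferon-gamma genes not called were Igtp, Iigp1 and Irf1. The difference between the classes was not tested.

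**Figure D3:**
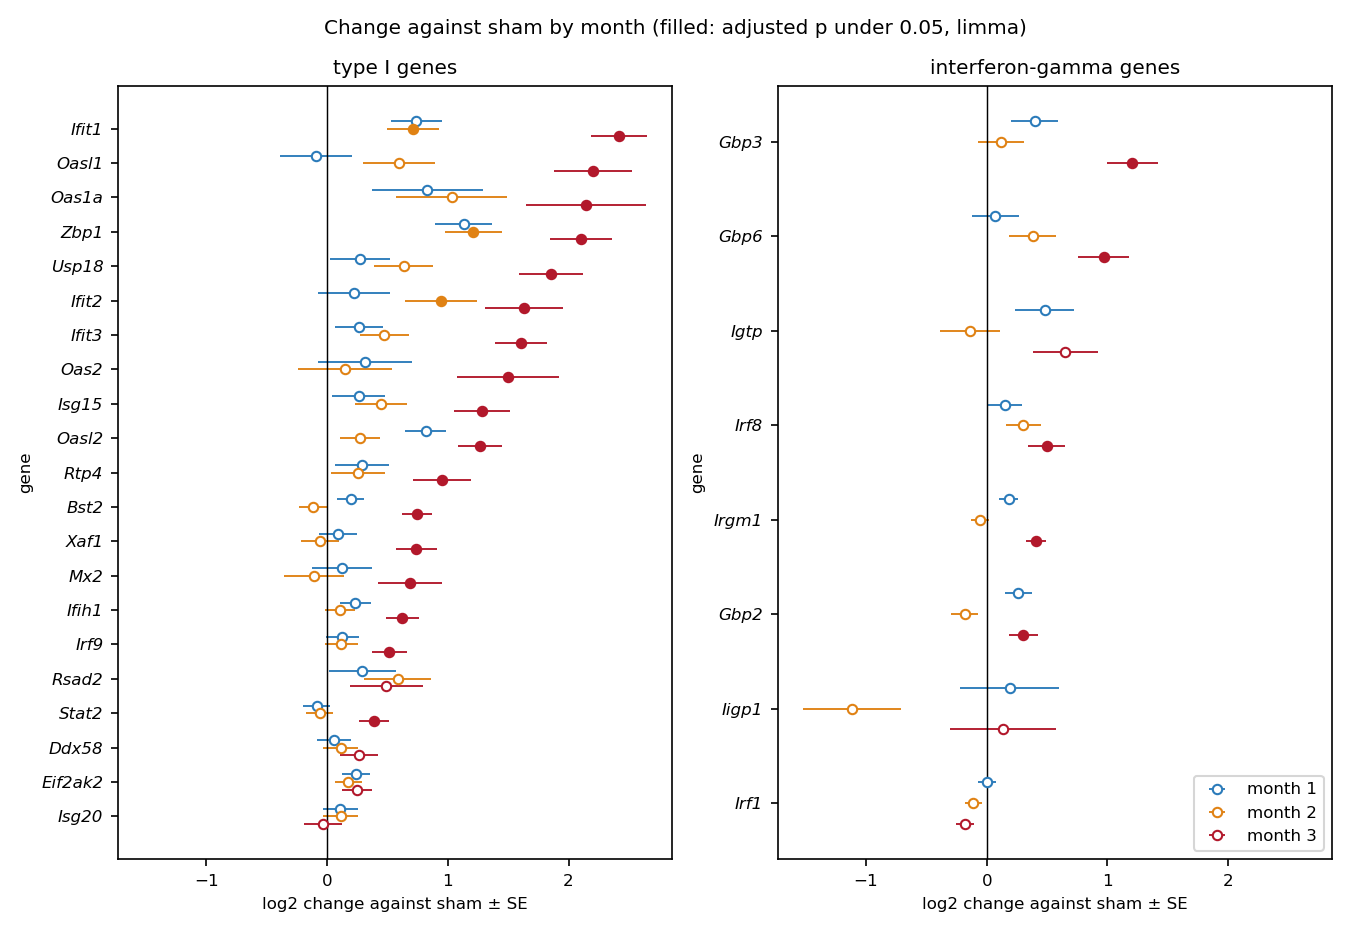
Log2 change against sham ± SE (horizontal axis) for 21 type I genes (left) and 8 interferon-gamma genes (right) in months 1, 2 and 3; filled points were called at an adjusted p under 0.05 by limma. In month 3 17 of 21 and 5 of 8 points are filled, in month 2 3 and 0. Of all genes 17.2% and 6.39% were called higher in these months. Zbp1, Ifit1 and Oasl1 passed the filter only through months in which they are high.

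The median of a class can also be read array by array. The mean difference from sham over the 21 type I genes was 0.85 to 1.79 on the month 3 arrays, 0.29 to 0.45 in month 2 and -0.42 to 0.30 in the shams. Zbp1, Ifit1 and Oasl1 are among the 21 and passed the filter only through months in which they are high. They do not support the distance of these months from sham, and means without them are not given here. Month 1 split into 0.63 and 0.70 in samples 1 and 5, which share the higher Myh7 level, and -0.07 to 0.16 in samples 2 to 4. Over the 8 interferon-gamma genes the month 3 arrays were at 0.13, 0.61, 0.62 and 0.63, the month 2 arrays at -0.31 to 0.07 and the shams at -0.34 to 0.27. Samples 1 and 5 of month 1 were at 0.14 and 0.22 and samples 2 to 4 at 0.10 to 0.39, so this mean did not split month 1. Gene by gene the classes were alike in this. Samples 1 and 5 were the highest 2 of month 1 for 13 of 21 type I genes, 5 of 8 interferon-gamma genes and 29.9% of all genes. Igtp and Iigp1 were lower in samples 1 and 5 than in samples 2 to 4.

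**Figure D4:**
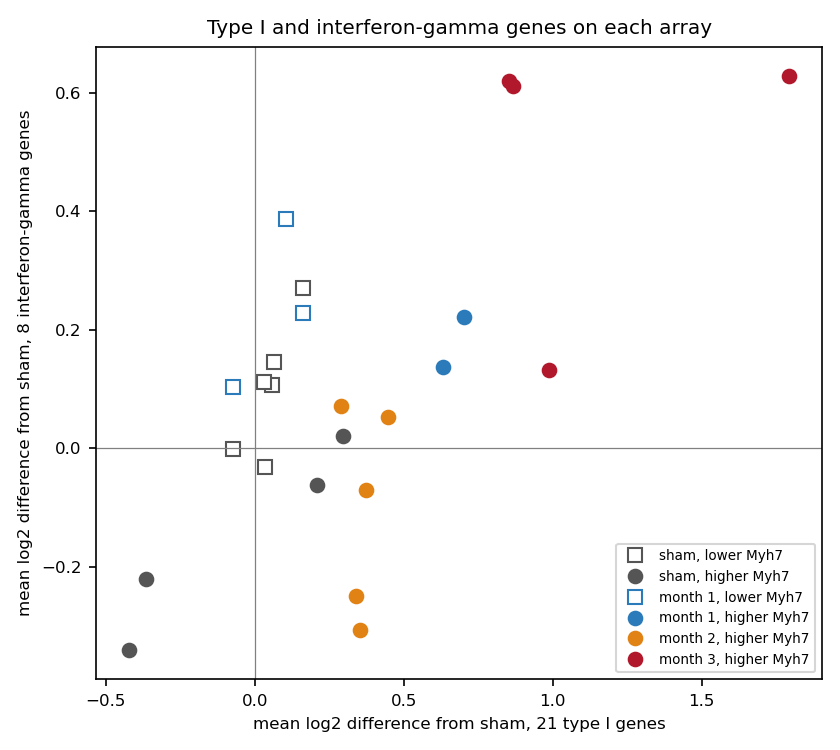
Mean log2 difference from sham over 21 type I genes (horizontal axis) and 8 interferon-gamma genes (vertical axis), 1 point per array; colours are groups, filled circles are arrays at the higher and open squares at the lower Myh7 level. The 4 month 3 arrays lie furthest right at 0.85 to 1.79, and the 5 month 2 arrays lie right of 0 with interferon-gamma means of -0.31 to 0.07. Zbp1, Ifit1 and Oasl1, among the 21, passed the filter only through months in which they are high.

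Month 3 was also compared with the earlier months directly. Against month 2, 17 of 36 genes were higher and 0 lower (8.98% and 9.74% of all genes, 18.7% together), 12 of the type I and 3 of the interferon-gamma class. Against month 1, 14 were higher and 0 lower (11.9% and 16.6%, 28.5% together), 10 and 2 by class. Both comparisons share the month 3 arrays. Oasl1, Ifit1 and Zbp1 were called against both months, but their low levels are close to background. They passed the filter only through months in which they are high, so their calls do not support these counts. With probes well above background on all arrays, 13 of 31 genes were called against month 2 and 9 against month 1. The share of all genes called with these probes is not given here. Between months 2 and 1 limma called 0 of 36, with 7 at an unadjusted p under 0.05, and called 0.00802% of all genes higher and 0.00802% lower, 0.016% together. The count against month 2 was 10 without month 3 sample 4, 7 with slide as a block, 10 with close arrays averaged and 10 with the percentile of all probes.

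Single arrays stood out for many of these genes at once. Month 3 sample 4 was the highest of all 24 arrays for 26 of 36 genes, 19 of 21 type I and 3 of 8 interferon-gamma genes, and for 14.5% of all genes. Without it 21 genes were called in month 3 and 16 over all months. Sham 7 and 9 were the lowest of the 10 shams for 13 of 36 genes, and for 3.59% of all genes. Without both, 16 genes were called over all months and 25 in month 3, of which 23 were among the 25 called with all shams, 24 higher and Irf1 lower. Every array above every sham was found for 14 of 36 genes in month 3 (5.73% of all genes), 2 in month 2 (Ifit1 and Zbp1, 1.49% of all genes) and 0 over all PSPI arrays (0.0241%). Both genes of month 2, and Oasl1 with them among the 14 of month 3, passed the filter only through months in which they are high. They do not support these counts.

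Further genes of the pathway, listed apart from the 43, showed which steps could be measured. Of 74 such genes 53 were kept, and 14 rose and 3 fell over all months, where 10.8% and 13.6% of all genes did. In month 3, 24 rose and 4 fell, against 17.2% and 21.7% of all genes. No probe was kept for Ifnb1, Ifna1, Ifna2, Ifna4, Ifng, Ifnk or Ifnl2. The Ifnl3 probe, which also matches Ifnl2, rose by 0.99 ± 0.35 in month 3 (adjusted p = 0.0300).

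The receptors did not move together. Ifngr2, a chain of the interferon-gamma receptor, ran from 0.91 to 1.31 in sham and from 0.29 to 0.59 in month 3, where all 4 arrays lay below every sham. It fell by 0.73 on the log2 scale in month 3 (SE 0.08, adjusted p = 8.54e-07). Ifngr1, the chain that binds the ligand, ran from 0.12 to 0.55 in sham and from 0.63 to 1.00 in month 3, and rose by 0.48 ± 0.12 (adjusted p = 0.00319). The type I receptor chains Ifnar1 (-0.11 ± 0.10, adjusted p = 0.423) and Ifnar2 (-0.05 ± 0.07, adjusted p = 0.598) were not called in month 3. Il10rb, a chain of the interferon-lambda receptor, and Socs1, an inhibitor of the receptor kinases, also fell in month 3, by 0.56 (SE 0.11, adjusted p = 5.67e-04) and 0.88 (SE 0.17, adjusted p = 4.81e-04), and are named after their values were seen.

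Target genes outside the list rose too, 17 of 27 kept in month 3 and 0 lower, against 17.2% and 21.7% of all genes. Those with the smallest p-values over all months were Ly6e, a membrane protein, at 0.61 ± 0.08 (adjusted p = 3.77e-05), Slfn2, a regulator of T cell quiescence, at 0.96 ± 0.13 (adjusted p = 5.12e-05), and Lgals3bp, a secreted galectin ligand, at 0.72 ± 0.10 (adjusted p = 7.11e-05). The Irg GTPase Ifi47 rose by 0.68 ± 0.12 (adjusted p = 7.01e-04), the immunoproteasome subunits Psmb8 and Psmb9 by 0.51 ± 0.11 (adjusted p = 0.00248) and 0.37 ± 0.10 (adjusted p = 0.00835), and Ifi27 by 0.29 ± 0.06 (adjusted p = 0.00295). Nlrc5, the activator of class I antigen presentation genes, rose by 1.23 ± 0.29 (adjusted p = 0.00509), and Stat3, a factor of the interleukin-6 response, by 0.25 ± 0.06 (adjusted p = 0.00699).

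Markers of immune and vessel cells also moved. Of 9 kept macrophage and monocyte markers (of 11 listed) 6 rose over all months and 4 in month 3, where 10.8% and 17.2% of all genes did. Their summed signal, relative to the 75th percentile, was 5.22 to 7.93 in sham and 6.69 to 7.95, 5.87 to 8.42 and 7.03 to 7.65 in months 1 to 3, and Cd68 and Fcgr1 were not kept. All 3 kept neutrophil markers (of 6) rose over all months (10.8% of all genes did), and Ly6g, Cxcr2 and Retnlg were not kept. In months 1, 2 and 3, 0, 2 and 3 of the 3 were called higher, against 0%, 6.39% and 17.2% of all genes. The lowest change among the 3 in month 2 was -0.0045. Their summed signal was 5.06 to 9.11 in sham, and 5.17 to 9.28, 5.75 to 8.74 and 9.67 to 23.3 in months 1 to 3. The pan-leukocyte gene Ptprc rose by 0.47 over all months (adjusted p = 0.00335) and stood at 0.31 in month 3 (adjusted p = 0.0984).

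Lymphocyte markers were few. Of 11 T cell and natural killer cell markers 5 were kept, without Cd3d, Cd3g, Cd8a, Gzmb, Ncr1 and Klrd1. Gzma and Prf1, granule proteins of killer cells, rose in month 3, and the summed signal of the 5 was 0.323 to 0.809 in sham and 0.336 to 1.19 in month 3. The 1 kept B cell marker of 4, Cd79b, rose in month 3, and Cd79a and Ms4a1 were not kept. Of 4 markers of plasmacytoid dendritic cells, known for making type I interferon, Siglech rose in month 3 by 0.79 (adjusted p = 0.0286), and Cox6a2, which is also a heart muscle gene, stood at 0.25 (adjusted p = 0.464). Ccr9 and Klk1 were not kept. All 7 endothelial markers were kept, 3 rose in month 3 (17.2% of all genes did), and their summed signal was 5.49 to 8.34 in sham and 9.29 to 10.4 in month 3. The part of these cells in the change of the interferon genes was not tested.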

How the data were processed

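RNA from 24 right ventricle samples was hybridised to 1-colour Agilent arrays with mm9 coordinates. The scanner files deposited by the authors hold intensity values on a linear scale, background subtracted, per the file headers, and Agilent Feature Extraction 10.7.3.1 made them, per the submitters' processing notes. The deposited series table holds intensity values equal to the net signal of the scanner files, within a relative tolerance of 0.001, and served as an alternative.

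Control and outlier spots were left out, spots of 1 probe averaged, and the 75th percentile of an array, taken over 16946 probes that all 24 arrays had well above background, was subtracted from its log2 values. Between 36.1% and 56.1% of probes were well above background per array. Of 55681 probes, 21040 were kept by the rule given in the text, and the brightest kept probe represented a gene. Genes were tested two-sided in R 4.3.3 by limma 3.58.1, which fitted all 4 groups at once, checked on simulated data. Groups came from the titles.

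Names came from accessions or symbols through a RefSeq gene table. Of the probes named Gbp6, 2 on chromosome 3 were left out, because Gbp6 today names a gene on chromosome 5; 1 of them is now Gbp7. Members, classes and lists were chosen with earlier results of these data known. Values on every array are given for the 10 genes with the smallest p over all months, the 3 such interferon-gamma genes, up to 6 with the largest called differences between months and up to 4 below 0 over all months. Of pathway genes outside the list, 10 with the smallest p and 4 receptor chains are named, and others only as stated. Some genes of these lists are not reported here.

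Alternatives were other scalings, the deposited table, normexp background correction (offset 50), other filters on dim probes, the mean of a gene's probes, slide as a block, slide 3 alone, a replicate block, close arrays averaged, and leaving out single arrays or Sham 6 to 9. Leaving out Sham 7 and 9 was chosen after seeing the data.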

Additional observations from a re-analysis of the deposited data

Results flagged for a closer look

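In 4 of 72 groups of values examined 1 array stood apart from its group mates by Dixon's test, which chance does in about 1 in 20 groups. Month 3 sample 4 did so for Ifit3, at -1.58 with the nearest at -2.52, and for Oasl1, at -2.13 with the nearest at -3.61. Sham 2 did so for Oasl1, at -4.54 with the nearest at -5.30. Month 1 sample 4 did so for Irf1, at -0.43 with the nearest at -0.17.

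Among genes given on every array, limma called 21 differences between month 3 and an earlier month. Over all 36 genes it called 17 against month 2 and 14 against month 1. These compare PSPI arrays without shams, whose month is not given. A difference in the effect of PSPI and a change with time alone cannot be told apart here. Against month 2 the log2 differences were 0.89 for Zbp1, 1.71 for Ifit1, 0.38 for Ifitm3, 0.99 for Oasl2, 1.13 for Ifit3, 1.22 for Usp18, 0.84 for Isg15, 1.60 for Oasl1, 1.09 for Gbp3, 0.47 for Irgm1 and 1.36 for Oas2. Against month 1 they were 0.97 for Zbp1, 1.68 for Ifit1, 0.43 for Ifitm3, 1.34 for Ifit3, 1.58 for Usp18, 1.41 for Ifit2, 1.02 for Isg15, 2.29 for Oasl1, 0.81 for Gbp3 and 0.90 for Gbp6. All 21 had month 3 higher. Zbp1, Ifit1 and Oasl1 passed the filter only through months in which they are high, so their calls do not support these counts. With slide as a fixed block Zbp1, Ifitm3, Usp18, Isg15 and Oas2 were no longer called against month 2, nor Zbp1 against month 1.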

How the results depend on the processing

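The number of arrays limits precision, and low levels of Zbp1, Ifit1 and Oasl1 are near background. No gene called in a comparison with sham had the opposite sign under the alternatives other than leaving out 1 array. Where a count or sign moved, the cause was not tested. Of the genes called over all months (18), 0 were called on slide 3 alone, which has fewer samples, and 9 with close arrays averaged. In month 1 (0), 1 was called with the replicate block and 1 without Sham 6 to 9. In month 2 (5), 3 were called with normexp, 3 with the deposited table, 2 without the filter, 2 with probes well above background on all arrays, 0 on slide 3 alone, 0 with close arrays averaged and 8 without Sham 6 to 9. In month 3 (25), 13 were called on slide 3 alone. Between months 2 and 1 (0), the replicate block called 1. Between months 3 and 2 (17), 10 were called with the percentile of all probes, 7 with slide as a fixed block, 0 on slide 3 alone and 10 with close arrays averaged. Between months 3 and 1 (14), 9 were called with probes well above background on all arrays, 0 on slide 3 alone and 8 with close arrays averaged. Leaving out 1 array gave 15 to 19, 0 to 1, 2 to 6, 21 to 25, 0 to 0, 10 to 20 and 10 to 17 calls in these 7 comparisons.

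Over all members, signs turned under 1 or more settings, apart from leaving out 1 array, for 6 genes over all months, 10 in month 1, 10 in month 2 and 7 in month 3, and 0 of these were called there with the main processing. Of genes given on every array, Iigp1, Trim25 and Samhd1 turned over all months or in month 3, and Oasl1 was among the 10 of month 1. Iigp1 was at 0.14 over all months with close arrays averaged. In month 3 Iigp1 was at -0.0287 with the percentile of all probes, -0.16 with the mean of kept probes, -0.10 with slide as a fixed block, -0.64 with the replicate block, -0.51 without Sham 6 to 9, -0.16 without Sham 7 and 9, and -0.0403 to 0.42 without 1 array. Trim25 was at 0.0575 over all months with the mean of kept probes. In month 3 Trim25 was at -0.15 with the percentile of all probes, -0.0325 with normexp, -0.0335 with the deposited table, -0.0125 with slide as a fixed block, -0.063 with the replicate block, and -0.0613 to 0.0529 without 1 array. Samhd1 in month 3 was at 0.0029 with the mean of kept probes.

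Single calls over all months ended too. On slide 3 alone Zbp1 (1.18, adjusted p = 0.214), Ifit1 (1.55, adjusted p = 0.155) and Ifitm3 (0.61, adjusted p = 0.289) kept their direction. Gbp6 ended with slide as a fixed block (0.57, adjusted p = 0.0587), the replicate block (0.51, adjusted p = 0.105), close arrays averaged (0.44, adjusted p = 0.178) and without Sham 6 to 9 (0.49, adjusted p = 0.0533), and Oasl1 and Gbp3 with the replicate block (0.77, adjusted p = 0.0955, and 0.39, adjusted p = 0.0637).

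Same-numbered samples did not pair: their gene-wise deviations from the group means correlated at -0.445 to 0.522 (median 0.00427, 27 pairs, 9 over 0.1). With the replicate block 14 genes were called over all months (13 higher, Iigp1 lower at -0.96, adjusted p = 0.00128), 7 in month 2 (6 higher, Iigp1 lower), 25 in month 3 (24 higher, Iigp1 lower at -0.64, adjusted p = 0.0293), 18 between months 3 and 2 and 17 between months 3 and 1, these 2 all higher.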
